A study of Mus musculus with 12 samples.

Results

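HRAS added behind an IRES was compared with the same cocktail without it in 5 RNA libraries, 2 labelled SDDIR and 3 labelled SDD, out of 11 distinct library columns analysed from a series of 12 samples. They were chosen by those column labels. The SDDIR B heading stands on 2 columns with identical values, which were counted as 1 library, so 1 labelled SDDIR sample was not analysed here. Whether these values belong to replicate B or C is unsettled, and SDDIR B is the name the heading gives. All samples were primary mouse embryonic fibroblasts carrying the Hb9::GFP reporter. Each received retrovirus for NIL, a single transcript for the motor neuron factors Ngn2, Isl1 and Lhx3 joined by 2A peptides. The SDD cells also received SNAP-p53DD, a SNAP-tagged dominant-negative form of p53. In the SDDIR cells HRAS(G12V), a mutant RAS that stays bound to GTP, followed SNAP-p53DD on the same transcript, behind an internal ribosome entry site (IRES). A further group of 3 libraries, RISDD, carried the same genes with HRAS(G12V) in front of the IRES and SNAP-p53DD behind it. Cells moved at 3 days post infection into neuronal medium with BDNF, GDNF, CNTF and FGF, and were collected at 4 days. SDD, SDDIR and RISDD cells also shared RepSox, an inhibitor of the TGF-beta type I receptor, from day 3, and sorting for SNAP. NIL cells had no RepSox and were sorted only as live single cells, so NIL entered the fit for its spread and otherwise only for a check of the Trp53 row. RNA came from equal numbers of sorted cells. The labels mark replicates as biological but do not say whether each came from its own embryos or culture, so the p-values measure the spread between these samples, which may be technical.

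RAS proteins pass signals from growth factor receptors to the kinases RAF, MEK and ERK. Active ERK switches on transcription of immediate early genes and then of its own brakes, among them the DUSP phosphatases and the Sprouty and Spred proteins. In fibroblasts RAS is classically known for transformation, and without functional p53 for escape from the growth arrest that it otherwise sets off. During conversion to motor neurons, fibroblast genes for matrix and contraction have to give way to a neuronal programme that the 3 delivered factors start. The comparison asks how adding HRAS behind the IRES changes the early transcriptome of cells that already have NIL, p53DD and RepSox.

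Depth, recovered from the step between deposited values, ran from 14872639 reads in SDDIR B to 29815073 reads in SDD C over the 5 libraries. The median difference between paired libraries over the tested genes was 0.17 (log2) within SDDIR, 0.14 to 0.23 within SDD and 0.38 to 0.47 between the groups. Mitochondrially encoded genes took 2.60% to 2.94% of the signal in SDD and 3.73% and 3.70% in SDDIR, and their part in the results was not tested. Among the other libraries NIL C stood apart, with 0.537% mitochondrial signal against 3.62% and 4.00% in the other NIL libraries, and it widens the spread that all groups share in the fit. The Trp53 row checks the p53DD labels: it stood at 2873, 3058 and 3674 in NIL, 32346, 40363 and 40127 in SDD and 29277 and 37068 in SDDIR. The mouse Hras row read 829.9, 905 and 981 in SDD and 911 and 933 in SDDIR, a log2 difference of 0.03 ± 0.26 (SE) that turned negative without SDD A. No row for the delivered HRAS was used here, so the table does not check its level. The rows of the delivered factors read lower in SDDIR, with calls that depended on the fit. Neurog2 stood at 60593, 79075 and 73575 in SDD and 39669 and 52579 in SDDIR (log2 -0.63, adjusted p = 0.282). Lhx3 stood at 103782, 136750.0 and 130381 and 70972 and 96814 (log2 -0.57, adjusted p = 0.297), and both passed without NIL C. Isl1 stood at 112760.0, 141762 and 139696 and 74614 and 95718 (log2 -0.63, adjusted p = 0.046), a call kept in 9 of 21 alternatives. Their part in the motor neuron results was not tested. Levels below are deposited normalized counts, always in the order A, B, C for SDD and A, B for SDDIR.

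The promoters of the antiviral genes Ifit1 and Ifit3 and of the sterol gene Hmgcs1 come from gene groups whose members moved together. They are shown as examples that hold a match to the letters searched. Each holds 250 bases before to 50 bases after the start site, from RefSeq on GRCm38.p6, an older build than the GRCm39 of the quantification. Capitals in Ifit1 (chr19:34640639-34640938, plus strand) and Ifit3 (chr19:34583279-34583578, plus strand) mark the interferon element, searched as GAAANNGAA on both strands, and neighbouring matches can run together. Capitals in Hmgcs1 (chr13:119690101-119690400, plus strand) mark the SREBP site, searched as TCACNCCAC on both strands.
Ifit1: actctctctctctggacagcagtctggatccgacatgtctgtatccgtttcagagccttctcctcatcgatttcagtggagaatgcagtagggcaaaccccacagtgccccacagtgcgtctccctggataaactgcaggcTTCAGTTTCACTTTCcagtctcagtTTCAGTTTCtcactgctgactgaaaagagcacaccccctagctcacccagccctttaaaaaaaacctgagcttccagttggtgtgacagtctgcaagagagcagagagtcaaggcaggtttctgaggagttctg
Ifit3: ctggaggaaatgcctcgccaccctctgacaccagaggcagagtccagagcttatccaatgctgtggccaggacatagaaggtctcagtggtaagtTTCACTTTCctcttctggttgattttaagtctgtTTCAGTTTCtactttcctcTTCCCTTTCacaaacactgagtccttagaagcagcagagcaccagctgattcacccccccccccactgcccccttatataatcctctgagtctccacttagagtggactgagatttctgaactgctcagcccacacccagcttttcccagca
Hmgcs1: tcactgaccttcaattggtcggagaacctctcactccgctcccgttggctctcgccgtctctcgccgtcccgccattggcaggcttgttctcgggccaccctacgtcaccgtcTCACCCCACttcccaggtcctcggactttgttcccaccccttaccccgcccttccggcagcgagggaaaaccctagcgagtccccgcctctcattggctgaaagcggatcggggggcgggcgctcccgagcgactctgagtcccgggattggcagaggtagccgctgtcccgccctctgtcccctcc
The interferon element was found in 12 of the 19 interferon effector genes with a promoter in the table (63.2%), beside 8.58% of all tested genes with one. The SREBP site was found in 1 of 15 cholesterol synthesis genes, Hmgcs1, beside 1.34% of tested genes. The E-box CAGCTG stood in 8 of 16 neuronal factor genes (50.0%), beside 18.1%. The other pairs searched did not all follow the list names. The AP-1 site, TGANTCA, stood in 3 of 21 ERK list genes (14.3%) and in 7 of 19 interferon effectors (36.8%), beside 6.51%. The ETS site, CCGGAAGT, stood in 0 of 21 ERK list genes, beside 8.55%. Of 11 MHC class I genes 3 held the interferon element (27.3%), and 0 of 10 sterol uptake and regulation genes held the SREBP site. These matches describe letters in a window and not bound sites.

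Of 14207 tested genes, 3199 changed between SDDIR and SDD (22.5%; limma, Benjamini-Hochberg adjusted p under 0.05). Of these, 1230 were higher in SDDIR (8.66%) and 1969 lower (13.9%), and quantile scaling split the calls almost evenly, with 1718 higher and 1790 lower. At least 2-fold changes were called for 645 higher genes (4.54%) and 1393 lower genes (9.81%). The number called depended on which libraries entered the fit: 6337 without NIL C, 1673 without SDDIR A and 1695 without SDDIR B. Over all tested genes, both SDDIR libraries lay above every SDD library for 32.6% and below every one for 32.3%, so an absence of overlap alone is common. The largest rises were in genes nearly silent in SDD. Krt8, a keratin of simple epithelia, read 0, 2.90 and 3.07 in SDD and 759 and 1560.2 in SDDIR. Its partner Krt18 read 13.5, 20.3 and 6.14 and 1621 and 2149, and the desmosomal cadherin Dsg2 7.89, 6.77 and 5.53 and 727 and 881. The log2 changes of these 3 genes were 8.76 ± 0.62, 7.16 ± 0.44 and 6.71 ± 0.65 (SE). The 10 largest rises and falls were picked among called genes without overlap between the groups, so their separation follows from the choice. Gal, which encodes the neuropeptide galanin, had the highest level among the largest rises, 1164, 3397 and 1907 in SDD and 50713 and 73979 in SDDIR (log2 4.96 ± 0.42). The WNT ligands Wnt7b (log2 5.60) and Wnt3 (log2 4.91), the transcriptional repressor Gfi1 (log2 5.27) and Arap3, a GTPase-activating protein (log2 5.91), were also among the 10 largest rises. The largest falls included Shisa3, at 324, 615 and 319 in SDD and 2.54 and 4.74 in SDDIR (log2 -6.47 ± 0.44). The fibril-associated collagen Col14a1 went from 3358, 2737 and 3641 to 28.8 and 43.9 (log2 -6.46 ± 0.23). Nog, a secreted BMP antagonist, went from 282, 161 and 198 to 1.69 and 2.37, the last a handful of reads a library.

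**Figure D1:**
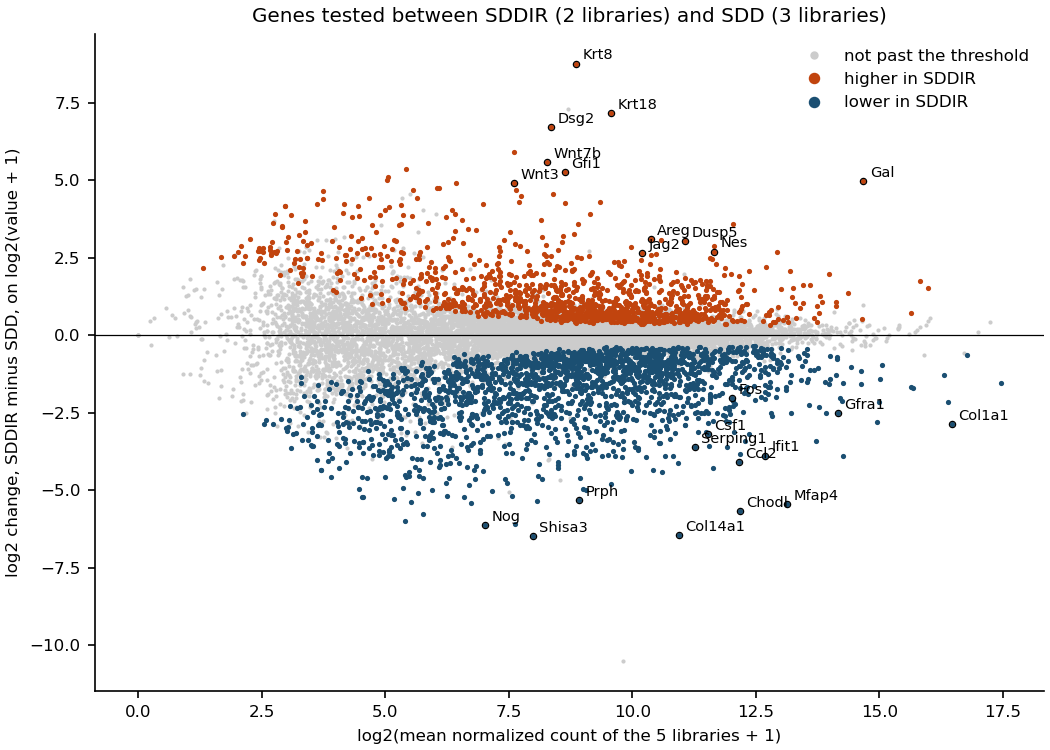
Mean level over the 5 libraries (x axis, log2 of the normalized count plus 1) against the log2 change SDDIR minus SDD (y axis) for 14207 tested genes, with the 1230 higher and 1969 lower genes coloured. Krt8, at log2 8.76, stands highest among the coloured genes, and Shisa3 and Col14a1 stand lowest among the labelled ones.

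Some of the brakes on ERK signalling rose and others did not pass. Of 28 tested genes on the ERK feedback and output list, 13 rose and 2 fell, with a median log2 change of 0.73 against 0.01 over all tested genes. Dusp5, a nuclear phosphatase that acts on ERK, read 519.8, 633 and 516 in SDD and 4939 and 4185 in SDDIR. Its log2 change was 3.03 ± 0.19 (SE; limma adjusted p = 1.24e-05). Dusp4, another nuclear phosphatase, read 1049, 905 and 766 and 6587 and 6697 (log2 2.88 ± 0.21). For both, the SDDIR libraries agreed closely and lay several-fold above all SDD libraries. Dusp6, the cytoplasmic ERK phosphatase, was already well expressed and moved less, from 3765, 3816 and 3229.6 to 6569 and 5580.3 (log2 0.75 ± 0.12). Spry4, an inhibitor upstream of RAF, read 1108, 1204 and 875 and 5781 and 6154 (log2 2.50 ± 0.18). Spred3, of the related Spred family, rose by log2 1.98, and Etv4, an ETS factor downstream of ERK, by log2 1.73. Dusp1 moved the other way: it read 10215, 6874 and 6297 in SDD and 2914 and 2069 in SDDIR, a log2 change of -1.63 ± 0.22. Dusp1 encodes a phosphatase of stress kinases and ERK and is itself an immediate early gene. Among the other brakes, Spry1 (log2 -0.28, adjusted p = 0.458), Spry2 (log2 -0.08), Spred1 (log2 0.42) and Spred2 (log2 0.10) did not pass. Nor did the phosphatase genes Dusp7 (log2 -0.05) and Dusp2 (log2 0.72, adjusted p = 0.711). Of these, Spred1 passed without NIL C and when only SDD and SDDIR were fitted. Over the 21 alternatives 10 to 15 genes of the list rose and 2 or 3 fell.

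Among EGFR ligands and receptors, 1 of 12 tested genes rose and 1 fell, beside 8.66% and 13.9% of all tested genes. The fall was lost without SDDIR A, and 2 rose without NIL A, NIL B or SDD B and 3 without NIL C. Without NIL B or NIL C 2 fell. The ligand gene Areg, for amphiregulin, read 231, 377 and 402 in SDD and 2636 and 2992 in SDDIR (log2 3.10 ± 0.25, adjusted p = 3.72e-05). The SDDIR libraries did not overlap the SDD libraries. Ereg, for epiregulin, did not pass, at 1096, 2583 and 1589.9 and 2741 and 2901 (log2 0.77, adjusted p = 0.331). Hbegf, for heparin-binding EGF, also missed the threshold (log2 0.94, adjusted p = 0.078). Of 23 ligands and receptors of the PDGF, FGF, HGF and VEGF families, 2 rose and 8 fell, with 5 falls without SDDIR A and 4 without SDDIR B. The rises numbered 4 without NIL C, 1 without SDD A, SDD B or SDDIR A and 0 without SDDIR B. The receptor gene Pdgfra, a fibroblast marker, fell from 7316, 6047 and 7325 to 2783 and 2833 (log2 -1.29 ± 0.17). Fgfr2 fell by 1.89 and the lymphatic growth factor gene Vegfc by 1.56 on the log2 scale.

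Immediate early genes were lower. Of 21 tested, 15 fell and none rose, with a median log2 change of -1.17, and 8 fell without SDDIR B. Fos, whose product pairs with JUN in AP-1, read 8298, 4212 and 5472 in SDD and 1567 and 1257 in SDDIR (log2 -2.04 ± 0.27, adjusted p = 5.14e-04). Egr1, a zinc-finger factor switched on by ERK through serum response factor, read 30219, 31525 and 35844 and 14735 and 14423 (log2 -1.15 ± 0.16). Both SDDIR libraries lay below every SDD library for both genes. Arc, better known from active neurons, went from 4098, 3902 and 3262 to 874 and 758 (log2 -2.20 ± 0.29). The nuclear receptor gene Nr4a3 fell by 1.89, the stress factor gene Atf3 by 1.26 and the antiproliferative gene Btg2 by 1.84 on the log2 scale. Of 9 AP-1 subunit genes, 6 fell, and 3 without SDD B, SDD C or SDDIR B. Fosl1, a subunit known to follow sustained ERK activity, was the member with a positive value, at 375, 1349.9 and 1061 and 1472 and 1523, and did not pass (log2 0.88, adjusted p = 0.259).

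**Figure D2:**
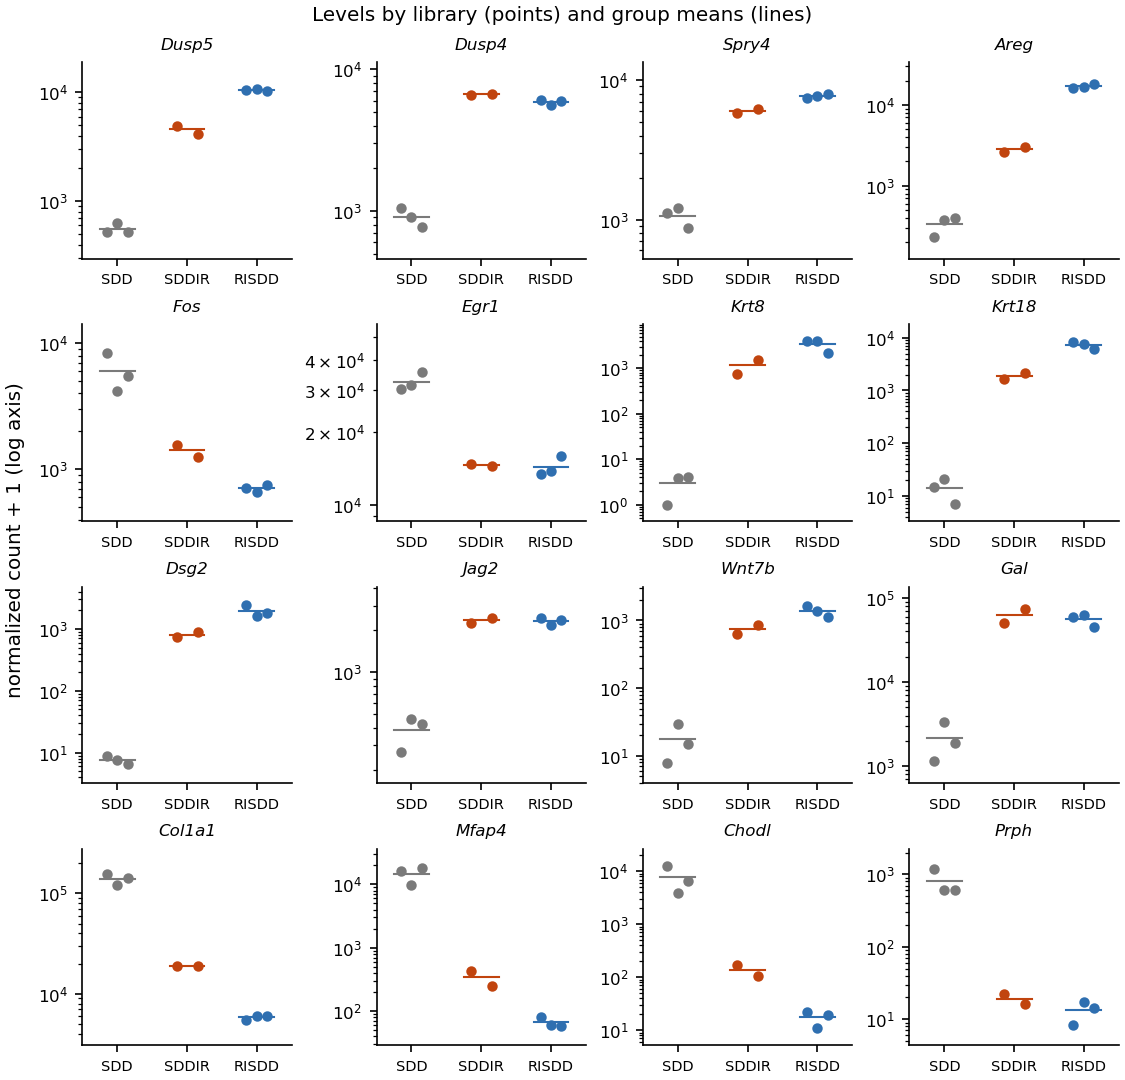
Normalized count plus 1 (log y axis) of 16 genes in each SDD, SDDIR and RISDD library (points), with group means as lines. Dusp5, Areg and Krt18 stand higher in SDDIR than in SDD and higher again in RISDD, while Fos, Col1a1 and Chodl stand lower in SDDIR.

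Some epithelial genes rose. Of 6 tested keratins of simple epithelia 2 rose, the Krt8 and Krt18 pair described above. Of 16 junction genes, 5 rose and 1 fell, a fall lost in most alternatives. Dsc2, a desmosomal cadherin, read 16.9, 19.3 and 35.6 in SDD and 249.8 and 247 in SDDIR (log2 3.39 ± 0.64). Pkp2, which links these cadherins to the cytoskeleton, read 55.3, 74.5 and 67.0 and 267 and 311 (log2 2.13 ± 0.24). Of the fixed epithelial markers Krt14, Krt15 and Esrp1 were at 0 in all 5 libraries, and the summed level was 28.0 to 33.2 in SDD and 28.5 to 31.3 in SDDIR. Low members of that list moved in opposite directions. Grhl2, an epithelial transcription factor, rose from 5.64, 4.83 and 1.84 to 17.8 and 11.9 (adjusted p = 0.0491), and Trp63, a p53 relative of basal epithelia, fell from 21.4, 20.3 and 21.5 to 0 and 3.56 (adjusted p = 0.014). The call on Grhl2 was lost without any 1 SDD, SDDIR or RISDD library, and that on Trp63 was lost without SDDIR A. Of 24 integrin and laminin genes, 3 rose and 7 fell, with 4 falls without SDD C, 3 without SDDIR A or SDDIR B, and 5 rises without NIL C. Itga6, the laminin receptor subunit of epithelia and stem cells, read 1179, 3438 and 2834 and 9648 and 9395 (log2 2.08 ± 0.39). Lama2, a laminin chain of mesenchymal basement membranes, read 5495, 4299 and 5347 and 942 and 814 (log2 -2.52 ± 0.16).

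Developmental signalling genes changed in both directions. In the NOTCH pathway 5 of 15 genes rose and 1 fell, with 3 rises without SDD C or SDDIR B. The ligand gene Jag2 read 267, 462 and 426 in SDD and 2269.8 and 2456 in SDDIR (log2 2.65 ± 0.38). The target gene Heyl rose by log2 1.73 and the coactivator gene Maml2 fell by 1.35 on that scale. Of 21 WNT pathway genes 4 rose and 7 fell, 4 of them without SDDIR A. The nuclear effectors Lef1 (log2 2.18) and Tcf7 (log2 2.71) rose, both from low levels. Rspo3, a secreted enhancer of WNT signals, fell from 716, 483 and 534 to 33.0 and 32.0 (log2 -4.09 ± 0.34). In the BMP pathway 3 of 19 genes rose and 9 fell. The ligand gene Bmp4 read 1757, 1118 and 1396 and 85.5 and 98.4 (log2 -3.92 ± 0.30), and Smad6, a feedback inhibitor, fell by 2.07 on the log2 scale. Fst, for follistatin, which binds activins, rose from 87.9, 123 and 115 to 849 and 632.

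Genes of the fibroblast matrix fell. Of 15 fibroblast collagen genes 14 fell, with a median log2 change of -1.97. Col1a1, the main chain of type I collagen, read 156762, 120214 and 141643 in SDD and 19108 and 18958 in SDDIR (log2 -2.87 ± 0.29, adjusted p = 1.10e-04). The 2 SDDIR libraries were nearly equal and below every SDD library. Col12a1 went from 26789, 20343 and 16423 to 1765 and 2124 (log2 -3.42 ± 0.22). Elastic fibre and crosslinking genes fell for 15 of 18 tested (median -1.62). Eln, for elastin, went from 1714, 859 and 1251 to 87.2 and 77.1 (log2 -3.89 ± 0.35). Lox, the enzyme that crosslinks collagen and elastin, went from 9131, 7263 and 7021 to 696 and 739 (log2 -3.43 ± 0.16). Mfap4, a protein of microfibrils, was the largest of these changes (log2 -5.44 ± 0.44). Of 18 leucine-rich and matricellular genes 15 fell and 1 rose (median -2.15), with Fmod, for the collagen-binding fibromodulin, at 688, 499.9 and 544 and 28.8 and 27.3. Among 21 TGF-beta target and contractile genes 13 fell and none rose, 7 without SDDIR A. All these cells had received the TGF-beta receptor inhibitor. Ccn2, a classical TGF-beta and YAP target, read 2793, 2749 and 1992 and 130.4 and 101 (log2 -4.42 ± 0.29). Surface and transcription factor markers of fibroblasts were less uniform, with 8 of 19 falling and 1 rising. Without NIL C 13 fell and 3 rose, and without any 1 SDD, SDDIR or RISDD library none rose. Thy1, a surface marker, went from 8938, 5361 and 6441 to 1859 and 1821 (log2 -1.88 ± 0.25). In these sorted pools, fewer cells of a type and less RNA per cell cannot be told apart.

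**Figure D3:**
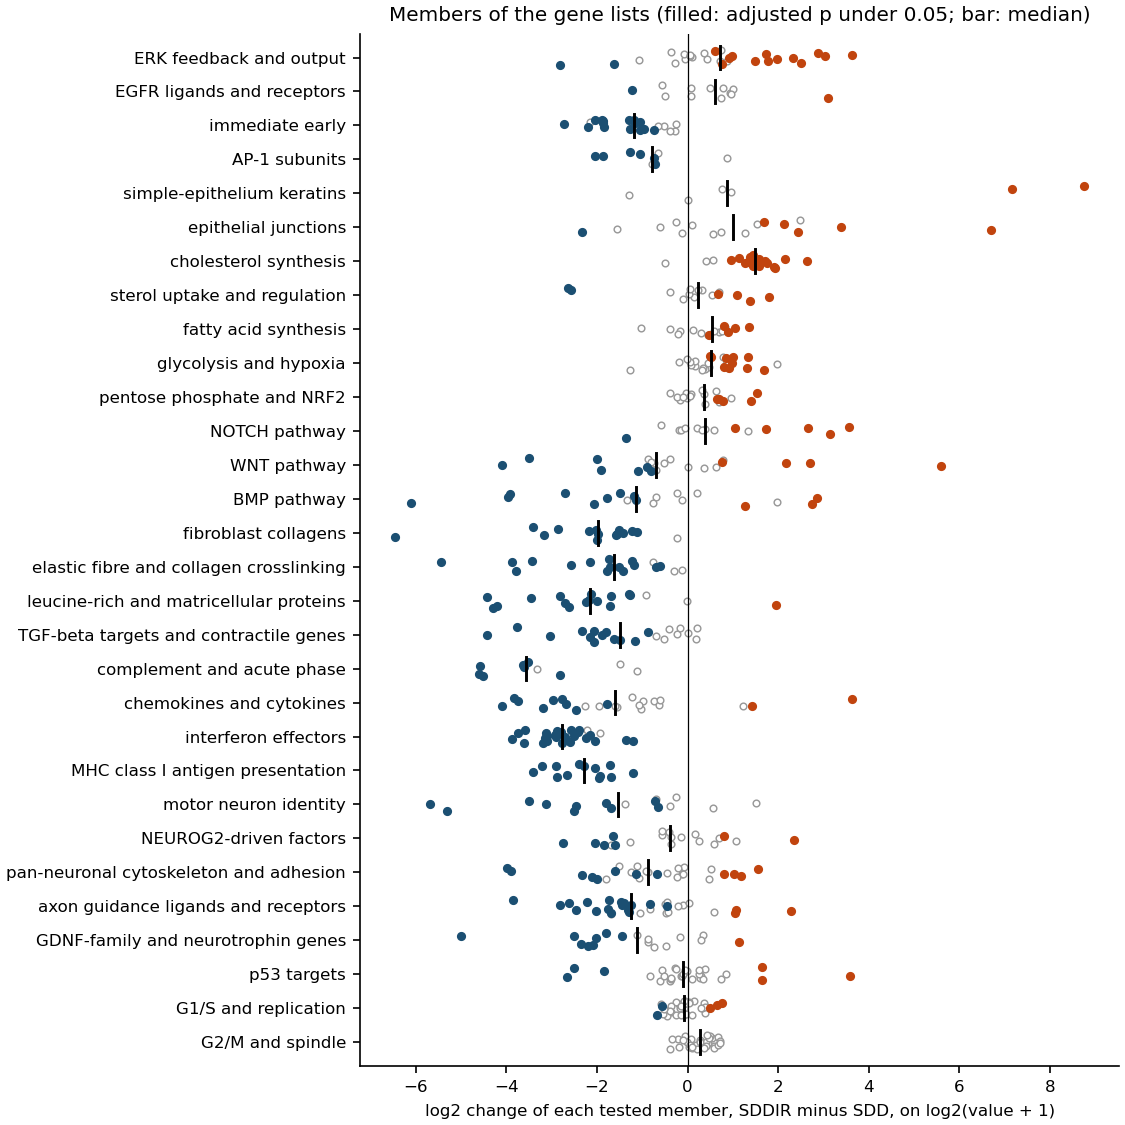
Log2 change, SDDIR minus SDD, of every tested member of 30 gene lists (one row a list), with filled points for adjusted p under 0.05 and a black bar at the median. Cholesterol synthesis stands to the right, with a median of 1.48, and interferon, complement, collagen and matrix lists stand to the left.

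Motor neuron genes fell. Of 16 tested motor neuron identity genes 10 fell and none rose (median -1.53). Chodl, a marker of fast motor neurons, read 12572, 3812 and 6629 in SDD and 166 and 104 in SDDIR (log2 -5.69 ± 0.51). Prph, for the intermediate filament peripherin of peripheral axons, read 1182, 611 and 602 and 21.2 and 15.4 (log2 -5.31 ± 0.43). Both genes are among the largest falls, which were picked without overlap between the groups, so their separation follows from the choice. Mnx1, the gene behind the Hb9::GFP reporter, was low throughout, at 127, 64.8 and 90.3 and 12.7 and 7.11 (log2 -3.12, adjusted p = 0.00978), a call lost without SDDIR B. Slc18a3, for the acetylcholine vesicle transporter, was too low to be tested, at 18.0, 0.967 and 5.53 in SDD and 0 and 0 in SDDIR, and Chat, for the enzyme that makes acetylcholine, was at 0 in all 5 libraries. Neuronal transcription factors driven by NEUROG2 were mixed, with 2 of 20 rising and 5 falling, or 4 and 8 without NIL C. Nhlh2, a helix-loop-helix factor of early neurons, rose from 255, 384 and 257 to 1209 and 1838 (log2 2.34 ± 0.31), and Sox11 rose by log2 0.81. Ebf3 fell from 2905, 2384 and 1984 to 708 and 819 and St18 by 2.04 on the log2 scale. Of 27 genes of neuronal cytoskeleton and adhesion 4 rose and 8 fell, with 4 falls without SDDIR A, 13 without NIL C and 2 rises without SDDIR B. Cntn2, an axonal adhesion molecule, read 40092, 26918 and 27037 and 1519 and 2782 (log2 -3.90 ± 0.44). Crmp1, a cytoskeletal protein of growing axons, went the other way, from 471, 299 and 290.0 to 1126 and 907 (log2 1.55 ± 0.23). Of 31 guidance genes 3 rose and 17 fell, with 9 falls without SDDIR A and 1 rise without SDD A, SDD C or SDDIR B. The repellent ligand gene Slit3 fell by 2.47 and its relative Slit2 by 1.68 on that scale.

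The medium held GDNF and CNTF, and their receptor genes were lower. Of 17 genes for GDNF-family and neurotrophin ligands and receptors 8 fell and 1 rose, a rise lost without SDD A, SDD C, SDDIR A or SDDIR B. Gfra1, the GDNF-binding receptor, read 34207, 25538 and 22368 in SDD and 4226 and 5232 in SDDIR (log2 -2.52 ± 0.19, adjusted p = 2.99e-05). Gfra3, the artemin receptor, read 1064, 1039 and 519.7 and 19.5 and 32.0 (log2 -5.00 ± 0.54). Both SDDIR libraries lay below all SDD libraries for each. Cntfr, the CNTF receptor, fell by 2.19, and the ligand gene Gdnf by 2.36 on the log2 scale. Of 4 tested glial and neural progenitor markers 2 rose and 1 fell. Nes, for the intermediate filament nestin, rose from 836, 1286 and 949 to 6009.8 and 7088 (log2 2.70 ± 0.20). Sox2, a progenitor transcription factor, rose from 20.3, 141 and 24.0 to 341 and 899 (log2 3.71 ± 0.90), a call lost without SDD A, SDD C or SDDIR B. Slc1a3, a glial glutamate transporter, fell from 93.6, 108 and 101 to 61.0 and 45.1 (adjusted p = 0.0476), a call lost without any 1 SDD, SDDIR or RISDD library. On the same list Olig1, Olig2, Sox1 and Fabp7 were at or near 0 and were not tested. The progenitor gene Pax6, also too low to be tested, read 13.5, 1.93 and 2.46 in SDD and 1.69 and 2.37 in SDDIR. Gfap read 2.26, 4.83 and 1.84 in SDD and 6.78 and 2.37 in SDDIR and was not called (log2 0.44).

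Genes for making cholesterol rose together. Of 20 enzyme genes on the path from acetyl-CoA to cholesterol 17 rose and none fell, with a median log2 change of 1.48, and 14 to 19 rose over the alternatives. Hmgcs1, an early enzyme whose promoter is printed above, read 1276, 1253 and 1204 in SDD and 3719 and 3686 in SDDIR (log2 1.57 ± 0.17, adjusted p = 1.34e-04). The SDDIR pair was tight and above all SDD values. Among later steps Sqle, for squalene epoxidase, read 627, 737 and 724 and 1930.1 and 2031 (log2 1.51 ± 0.13). Msmo1, a sterol demethylation enzyme, had the largest log2 change of the list, 2.63 ± 0.35, from 407, 508 and 485 to 3040.5 and 2730.3. Dhcr7, near the end of the path, read 371, 473 and 422 and 1038 and 1261. The 3 members that did not pass were Mvk (log2 0.40), Pmvk (log2 0.55) and Ebp (log2 -0.49, adjusted p = 0.0876). Without NIL C Mvk and Pmvk passed as rises and Ebp as a fall. Mvk and Ebp also passed when only SDD and SDDIR were fitted, and Ebp in DESeq2. Of 15 genes for sterol uptake and regulation 4 rose and 2 fell, with 7 rises without NIL C. Insig1, a sterol-regulated brake on the pathway, rose by log2 1.37. Abca1, which exports cholesterol, fell from 3048, 1693 and 1492 to 302 and 363 (log2 -2.57 ± 0.27), and Mylip, a ubiquitin ligase gene induced by sterols, fell by 2.63 on the log2 scale. In fatty acid synthesis 5 of 16 genes rose and none fell, 10 without NIL C, with the desaturase gene Scd1 at 1168, 1266 and 1142 and 2944 and 3126 (log2 1.35 ± 0.18).

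**Figure D4:**
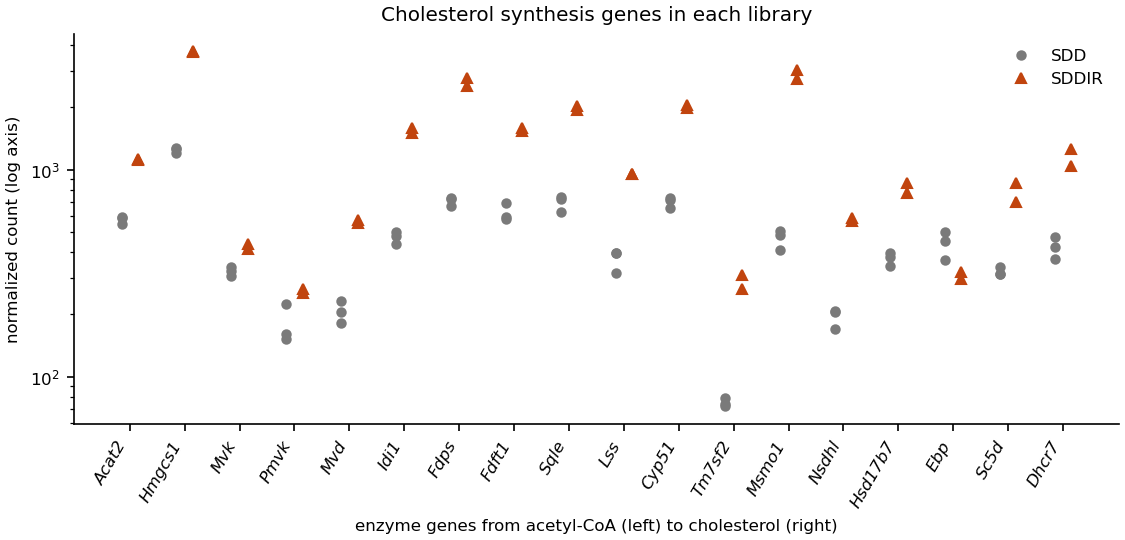
Normalized count (log y axis) of cholesterol synthesis genes in pathway order, some of the list left out, (x axis) in 3 SDD libraries (grey circles) and 2 SDDIR libraries (orange triangles). The genes shown that rose have both triangles above all circles, and Ebp is the gene with both triangles below.

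Glycolysis calls depended on single libraries. Of 27 glycolysis and hypoxia genes 10 rose and none fell, but 2 rose without SDDIR A or without SDDIR B, 4 without SDD A or SDD B, and 17 without NIL C. Egln3, a hypoxia-induced prolyl hydroxylase, read 209, 302 and 305 in SDD and 748 and 1005 in SDDIR (log2 1.69 ± 0.24). Of 19 pentose phosphate and NRF2 genes 5 rose, 2 without SDDIR B, 3 without SDDIR A and 8 without NIL C. Srxn1, an antioxidant gene under NRF2, read 1106, 2119 and 1833 and 5202 and 4287 (log2 1.54 ± 0.26).

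The interferon programme was lower in SDDIR, and more so in SDDIR B. Of 27 interferon effector genes 25 fell and none rose (median -2.78), and 8 fell without SDDIR B. Ifit1, which binds foreign RNA and whose promoter is printed above, read 7190.5, 12615 and 11648 in SDD and 1129.8 and 419.7 in SDDIR (log2 -3.88 ± 0.50, adjusted p = 4.62e-04). Ifit3 read 3070.3, 7861 and 7312 and 722 and 295 (log2 -3.60 ± 0.49). Zbp1, a sensor of Z-form nucleic acid, read 499.5, 766 and 872 and 75.4 and 34.4 (log2 -3.74 ± 0.41). Both SDDIR libraries lay below all SDD libraries, SDD A was the lowest SDD library and SDDIR A was above SDDIR B. All 27 genes were lower in SDDIR B than in SDDIR A, and their median log2 difference from the SDD mean was -2.12 in SDDIR A and -3.48 in SDDIR B. For Isg15, a ubiquitin-like modifier, the call was lost without SDDIR B, with 3029.8, 5945 and 5536 and 1028 and 441 (log2 -2.78 ± 0.68). Among 18 sensors, IRFs and STATs 12 fell, 6 without SDDIR B, with the RNA sensor gene Tlr3 at 297, 646 and 579.9 and 69.4 and 40.3. All 13 MHC class I presentation genes fell (median -2.29), 7 without SDDIR B. Tap1, which carries peptides into the endoplasmic reticulum, read 1399, 2160.2 and 2508 and 449 and 156 (log2 -2.88 ± 0.43). The class I family gene H2-Q4 fell by 3.22, with the caution that near-identical copies can share its reads.

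**Figure D5:**
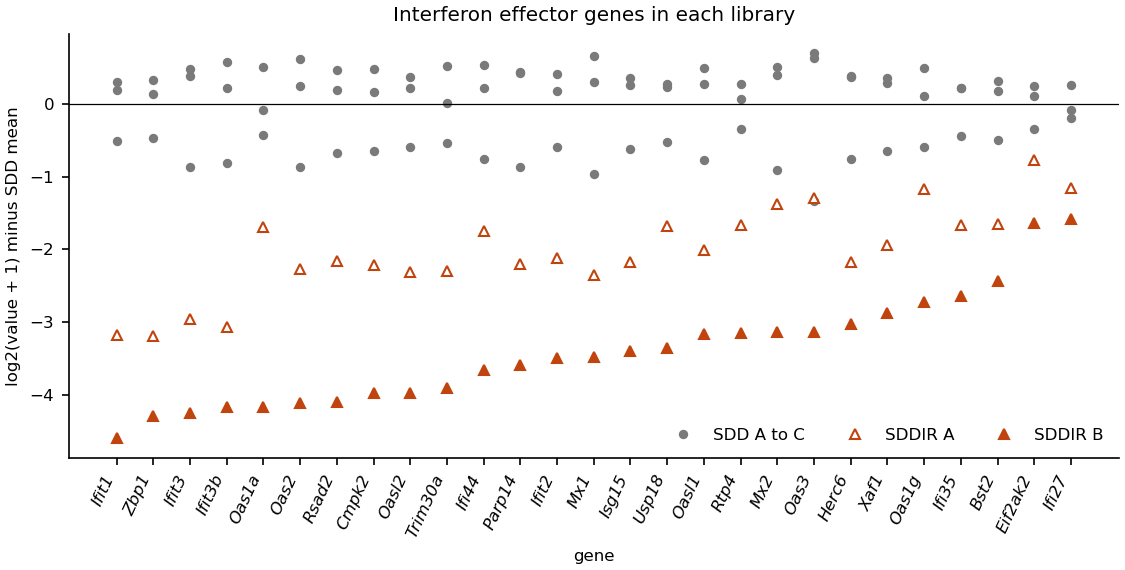
Log2(value + 1) minus the SDD mean (y axis) for 27 interferon effector genes (x axis) in 3 SDD libraries (circles), SDDIR A (open triangles) and SDDIR B (filled triangles). Both triangles stand below 0 for every gene, and SDDIR B stands below SDDIR A for each of the 27.

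Secreted immune genes followed. Of 23 chemokine and cytokine genes 9 fell and 2 rose, with 1 rise without SDD A, SDDIR A or SDDIR B. Ccl2, which recruits monocytes, read 2843, 8727 and 10508 in SDD and 428 and 328 in SDDIR (log2 -4.09 ± 0.60). Csf1, the macrophage growth factor, read 3946, 4869 and 5032 and 567 and 446 (log2 -3.19 ± 0.19). Il11, a cytokine of the IL6 family, rose from 3.38, 25.1 and 7.99 to 110.1 and 139.9 (log2 3.63 ± 0.66). Of 10 complement and acute phase genes 7 fell (median -3.57). Serping1, the C1 inhibitor, read 4143, 3755 and 3827 and 299 and 339 (log2 -3.61 ± 0.14). Macrophage and leukocyte markers, which the culture could hold, summed to 628 to 1643 in SDD and 400 to 938 in SDDIR, with 1 of 11 tested markers called higher and 1 lower. Log2 changes were negative for 10 of the 11 (median -2.17), and Cx3cr1 was at 0 in both SDDIR libraries. Their median log2 difference from the SDD mean was -2.61 in SDDIR A and -0.77 in SDDIR B. For 9 of the 11 SDDIR B was higher than SDDIR A, the reverse of the interferon effectors. Lyz2, a lysozyme gene of macrophages, did not pass (log2 -2.67 ± 1.01, adjusted p = 0.0864). Adgre1, a macrophage surface receptor gene, fell from 83.4, 190.5 and 207 to 12.7 and 40.3, a call lost without SDD B, SDD C or SDDIR A. Cd68, a lysosomal protein gene, rose to 316 and 345 (log2 1.95 ± 0.45) and made up most of the SDDIR A sum. Its call was lost without SDDIR A or SDDIR B. Their part in the immune results was not tested.

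Lists of p53 and cell cycle genes held calls in both directions. Of 29 p53 target genes 3 rose and 3 fell, a share near the 22.5% of all tested genes, or 7 and 6 without NIL C, in cells that all carry p53DD. Cdkn1a, the p53 target that encodes p21, read 2346, 4120.3 and 3201 in SDD and 2655 and 2517 in SDDIR (log2 -0.28 ± 0.20, adjusted p = 0.363). Trp53i11 rose from 803, 829 and 649 to 6687 and 12177 (log2 3.58 ± 0.36), and Fas, a death receptor gene, fell by 2.66 on the log2 scale. Among 13 inhibitors of cyclin-dependent kinases and senescence genes 4 rose and 1 fell, with 2 rises without SDDIR A, 1 without SDDIR B and 3 falls without NIL C. Cdkn2b, for p15, read 598, 776 and 611 and 1663 and 1908 (log2 1.44 ± 0.19). Cdkn2c, for p18, fell from 1867, 1396 and 1294 to 455 and 437 (log2 -1.75 ± 0.30). Of 34 genes of G1/S and replication 3 rose and 2 fell, beside 22.5% of all tested genes called, or 7 and 7 without NIL C. E2f8, an E2F repressor, was among the rises (log2 0.76). Leaving out any 1 SDD or RISDD library or SDDIR A left 1 rise, and no fall was left without SDDIR A or SDDIR B. None of 30 G2/M genes was called in the reported fit over all 4 groups. When only SDD and SDDIR were fitted 12 rose and 1 fell. With the replicate letter as a block 3 rose, in DESeq2 2 rose, and without NIL A, NIL B and NIL C 1, 4 and 6 rose.

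Remaining lists moved less or with single libraries, and their counts stand beside 8.66% of all tested genes called higher and 13.9% lower. Of 24 core RAS and RAF pathway genes 2 rose and 1 fell. No rise was left without SDDIR A or without SDDIR B, while 7 rose without NIL C and 1 without any 1 SDD library. Without NIL B or NIL C 2 fell. Among 20 matrix protease and plasminogen genes 2 rose and 10 fell, with 6 falls without SDDIR A, 1 rise without SDD C and none without SDD A, SDDIR A or SDDIR B. Of 21 synaptic genes 4 rose and 3 fell, with 2 rises without SDDIR B, 1 fall without SDDIR A and 6 without NIL C. Of 21 integrated stress response genes 3 fell, none without SDDIR A and 1 without SDDIR B, and 5 rose without NIL C and 1 without NIL A or NIL B. Of 15 BCL2 family genes and of 15 unfolded protein response genes 1 each rose and 1 each fell, and of 23 ribosome biogenesis genes 1 rose. None of these calls was left without SDDIR B, and without SDDIR A the fall in the unfolded protein response and the rise in ribosome biogenesis were lost. Without NIL C, 2 BCL2 family genes rose and 4 fell, 2 genes of the unfolded protein response rose and 2 fell, and 3 ribosome biogenesis genes rose. None of the 13 mitochondrially encoded genes was called, while 5 rose without NIL C. Other cell types the culture could hold were checked by fixed markers. Schwann and neural crest markers summed to 843 to 1834 in SDD and 248 to 916 in SDDIR, with Gfra3 the 1 of 8 tested that fell. Gfra3, at 1064, 1039 and 520 in SDD, made up most of the SDD sums. Log2 changes were negative for 4 of the 8 and positive for 4. Endothelial markers summed to 151 to 165 and 288 to 295, with 1 of 5 higher, and Emcn at 0. Of 8 chondrocyte, osteoblast and adipocyte markers 1 rose and 2 fell. Runx2, an osteoblast factor, rose from 476, 663 and 485 to 1132 and 1338 (log2 1.20 ± 0.17). Other osteoblast genes did not follow. Ibsp and Bglap were at 0 in all SDD and SDDIR libraries, Sp7 was too low to be tested and Alpl was not called (log2 -0.22). The fat cell genes Fabp4, at 142, 155 and 437 and 52.5 and 51.0, and Lpl, at 1167, 904 and 1376 and 246 and 239, fell (log2 -2.02 and -2.22), the Fabp4 call being lost without SDDIR A or SDDIR B. The other fat cell genes Adipoq and Plin1 were too low to be tested, and Pparg was not called (log2 -1.12). Muscle markers were low in all libraries and none of 3 tested was called.

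RISDD differed from SDDIR in 1377 genes (9.69%), 659 higher (4.64%) and 718 lower (5.05%) in RISDD. HRAS and SNAP-p53DD trade places around the IRES between these groups. The place of HRAS, the place of p53DD and the SNAP sort therefore cannot be told apart. Fewer genes were called without SDDIR A or SDDIR B, 4182 without NIL C and 612 to 711 without a RISDD library. At least 2-fold changes made up 6.36% of tested genes, 2.89% higher and 3.46% lower, and RISDD against SDD changed 42.6%. This contrast shares the SDDIR libraries with the one above, so values are given side by side. Areg read 16221, 16910.0 and 18137 in RISDD (log2 RISDD minus SDDIR 2.60, adjusted p = 4.99e-04), above both SDDIR libraries. Dusp5 read 10551, 10819 and 10296 (log2 1.21, a call lost without SDDIR B), while Dusp4 read 6018, 5580.0 and 5995, with no difference called (log2 -0.18, adjusted p = 0.697). Col1a1 read 5463, 6045 and 5956 (log2 -1.71, lost without either SDDIR library) and Lox 168, 226 and 176 (log2 -1.92), both below SDDIR. Of the 27 interferon effectors 17 were lower in RISDD than in SDDIR and none was higher, and Ifit1 read 37.1, 78.9 and 88.5 (log2 -3.41). Of 20 cholesterol synthesis genes 1 was higher and none lower, and Hmgcs1 read 3984, 4507 and 4266 (log2 0.20, adjusted p = 0.547). Of 29 p53 target genes 9 were higher in RISDD than in SDDIR and none was lower. Among them Cdkn1a read 6426, 6779 and 6573 in RISDD, above SDDIR (log2 1.35, adjusted p = 0.0028). Tgfbi, a matrix protein induced by TGF-beta, read 3078, 2683 and 1891 in SDD, 232 and 401 in SDDIR and 1644, 2033 and 2751 in RISDD, so SDDIR was the low group (log2 RISDD minus SDDIR 2.78).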

How the data were processed

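PolyA RNA was sequenced from sorted mouse cells. The submitters' processing notes name Trim Galore 0.6.10, Salmon 1.10.3 and GRCm39, but no tool for scaling the values. The deposited table holds a normalized signal per gene, the authors' gene counts divided by a factor per library; at a tolerance of 0.001, 100% of values were whole multiples of each library's step, which gave recovered reads. The table has 23077 genes. A second column headed SDDIR B, identical in all 23077 rows, was left out (1 column of per-sample values not used). No spike-in or cassette row was used here.

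The 14207 genes that reached 10 in 3 or more libraries entered limma 3.58.1 (R 4.3.3). Values were log2(value + 1), fitted with trend and robust moderation, over the 11 libraries of 4 groups in one fit. A fold change on this scale understates changes of low genes. Adjusted p-values are Benjamini-Hochberg over all tested genes, with 0.05 as threshold. The fit was tested on simulated data. edgeR 4.0.16 and DESeq2 1.42.0 on recovered reads, other scalings, filters and pseudocounts, and leaving out each library were alternatives.

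Members and lists were chosen with earlier results of these data known, so list counts are descriptions beside the background. Named genes are the delivered genes, the 10 largest rises and falls at a mean of at least 100 without overlap, and fixed cell type markers. Added to these are up to 4 called members a list at that mean and any member of a set of core lists. The text describes a selection of these that favoured genes whose call held in the alternatives, so their stability is not typical of all called genes. Promoters come from RefSeq on GRCm38.p6, for letters only. The counting's use of strand is not stated, so overlapping genes cannot be told apart. Some members are counted but not reported here by name.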

Additional observations from a re-analysis of the deposited data

Results flagged for a closer look

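In 15 tested genes SDDIR and RISDD were called in opposite directions against SDD, with the difference between them called as well (limma, adjusted p under 0.05). SNAP-p53DD also changes place between these groups, so no difference can be credited to the place of HRAS alone. Inhba, Igfbp3 and Crabp1 are described here, chosen after their values were seen. Both comparisons share the SDD libraries. Inhba, for the activin subunit, averaged 3486 in SDD, 1282 in SDDIR and 5951 in RISDD, with a log2 difference RISDD minus SDDIR of 2.21. Igfbp3, which binds insulin-like growth factors, averaged 5544, 2695 and 18294, with a difference of 2.76, and its SDDIR call was lost without any 1 SDD library, without SDDIR A and with neither trend nor robust moderation. Crabp1, which binds retinoic acid, averaged 8095, 14948 and 5374, with a difference of -1.46, and its rise in SDDIR was lost without SDDIR B.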

How the results depend on the processing

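Of the 221 called genes that the naming rule gives between SDDIR and SDD, 145 kept call and direction in every one of the 21 alternatives that gave a value. Without SDDIR A 183 of them kept it and without SDDIR B 157. The text favoured genes that kept their call, so 93 of its 105 called genes did so by choice and not as evidence. Hras, which was not called, ranged from -0.0313 (without SDD A) to 0.0893 (without SDD C) with 1 library left out. Among genes not called, Dusp7 was at 0.0181 under quantile scaling, 0.0706 with the replicate block and -0.0953 (without SDD C) to 0.0141 (without SDD A) with 1 library left out. Spry2 was at 0.0314 under quantile scaling and -0.171 (without SDDIR A) to 0.0148 (without SDDIR B), and Dusp2 at -0.00989 with the block. For SDDIR against SDD, fitting only these 2 groups called 5361 genes (2405 higher, 2956 lower). Leaving out 1 library gave 1673 to 6337 genes, 495 to 3052 higher and 1117 to 3285 lower, the highest without NIL C and the lowest totals without an SDDIR library. edgeR called 1247 higher and 1899 lower, and DESeq2 1668 and 2338. For RISDD against SDDIR, fitting only these 2 groups called 4923 genes (2667 higher, 2256 lower, 1375 at 2-fold) and DESeq2 2258 (1092 higher, 1166 lower). Leaving out 1 library gave 308 to 4182 genes, 120 to 2116 higher, 188 to 2066 lower and 293 to 1339 at 2-fold. The median change of all tested genes was 0.10 under quantile scaling and 0.01 in the reported fit. With the replicate letter as a block, 1266 genes were higher and 2093 lower. SDD and SDDIR share 2 letters, and the deviations of same-letter libraries correlated at 0.06 for A and 0.11 for B. Over same-letter pairs of all groups the correlations ran from 0.000225 (SDDIR A with RISDD A) to 0.271 (NIL B with RISDD B). Such values cannot tell whether the letters mark a pairing in the design, and the reported fit leaves the letters out. The letter B of SDDIR is itself unsettled, and the block and the SDDIR correlation for B rest on it. The causes of these movements were not tested. The 2 SDDIR libraries limit the precision of every value, and low genes such as Mnx1 and Nog rest on few reads.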
